A study of Mus musculus with 8 samples.

Results

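Serotonin neurons were followed through 6 genes in poly(A) RNA of mouse ventral midbrain, the region whose dopaminergic neurons are lost in Parkinson disease. Tph2, Slc6a4 and Fev mark the serotonin neurons themselves, and Htr1a, Htr1b and Htr2c encode serotonin receptors. The 6 were chosen by name, and all 6 were among the 15274 genes of the table, each as 1 RefSeq transcript. There were 4 samples labelled Ercc1 delta/+, mice with 1 mutant allele of the DNA repair gene Ercc1, and 4 labelled wild type. Both genotypes share the mixed FVB:C57BL/6J background and a regular diet, and their age is not given in the labels. Nothing in the labels ties a sample to 1 animal, and the p-values below therefore rest on the spread among these samples, part of which may be technical.

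Serotonin neurons sit in the raphe nuclei along the midline of the brainstem, which border the ventral midbrain and send fibres to most of the brain. Tryptophan hydroxylase 2, the product of Tph2, carries out the rate-limiting step of serotonin synthesis in the brain. The transporter encoded by Slc6a4 takes released serotonin back up, and Fev (also called Pet-1) is an ETS-family transcription factor that maintains the serotonergic identity of these cells. Htr1a and Htr1b encode inhibitory receptors found on serotonin neurons, where they act as autoreceptors, and on target cells. Htr2c encodes a receptor of target neurons that is also abundant in choroid plexus epithelium.

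The 250 bases before the annotated start of the 3 serotonin neuron genes are shown because these genes had their highest levels in the same libraries, as described below. They come from the RefSeq promoter table of GRCm38.p6, a later build than the mm9 build named for the counts. The window of Tph2 lies at chr10:115185023-115185272 on the minus strand, that of Slc6a4 at chr11:76998347-76998596 on the plus strand and that of Fev at chr1:74885409-74885658 on the minus strand. Capitals mark AGATAA, a motif read by GATA factors, and GGAANT, a motif read by ETS factors, each searched on both strands.
Tph2: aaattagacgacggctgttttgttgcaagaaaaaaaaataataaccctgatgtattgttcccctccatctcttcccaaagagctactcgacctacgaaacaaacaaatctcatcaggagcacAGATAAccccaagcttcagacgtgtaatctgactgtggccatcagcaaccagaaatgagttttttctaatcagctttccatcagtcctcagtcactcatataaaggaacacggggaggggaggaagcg
Slc6a4: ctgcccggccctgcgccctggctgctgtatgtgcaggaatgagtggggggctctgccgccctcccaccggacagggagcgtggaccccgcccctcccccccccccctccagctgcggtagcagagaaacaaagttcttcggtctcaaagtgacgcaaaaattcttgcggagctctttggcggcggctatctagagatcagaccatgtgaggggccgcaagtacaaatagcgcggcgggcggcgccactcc
Fev: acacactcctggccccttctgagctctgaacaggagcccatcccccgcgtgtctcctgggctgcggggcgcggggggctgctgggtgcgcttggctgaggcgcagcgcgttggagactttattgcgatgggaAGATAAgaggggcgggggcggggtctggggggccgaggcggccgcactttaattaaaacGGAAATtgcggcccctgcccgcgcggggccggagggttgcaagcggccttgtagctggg
AGATAA occurred once before Tph2, from 128 to 123 bases before the start, and once before Fev, from 118 to 113 bases before it. It was present in 9.99% of 32851 mouse promoter windows of this length and was not found before Slc6a4, Htr1a, Htr1b or Htr2c. GGAANT occurred once before Fev, from 59 to 54 bases before the start, and in 47.1% of all windows. It was also found once each before Htr1a, Htr1b and Htr2c, and not before Tph2 or Slc6a4. TATAAA, the TATA box motif, stood from 30 to 25 bases before the start of Tph2, was not found before the other 5 genes, and occurred in 12.4% of all windows. The searched motifs do not overlap one another in the windows shown, and a match is a string of letters that was not tested as a binding site.

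The libraries held between 18268373 and 31197522 counts, so that 3 counts corresponded to between 0.0962 and 0.164 CPM (counts scaled by normalised library size), a limit that covers counting error only. The 4 libraries of lowest total were wild type replicate 2 and, in Ercc1 delta/+, replicates 1, 2 and 4. Ercc1 itself stood at 10.2, 12.9, 11.1 and 11.9 CPM in Ercc1 delta/+ replicates 1 to 4. In wild type replicates 1 to 4 it stood at 14.1, 15.4, 15.0 and 13.8 CPM. The groups did not overlap, as for 6.86% of genes tested in the lower direction. The log2 fold change of Ercc1 was -0.34 (adjusted p = 0.114, edgeR quasi-likelihood test). Ercc1 delta/+ replicate 2 stood apart in markers of neighbouring brain regions, as described below. Some results, among them the fold changes of Tph2, Slc6a4 and Htr1a, are therefore also given without it.

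Tph2 differed between libraries by 132-fold from the lowest to the highest. In Ercc1 delta/+ replicates 1 to 4 its normalised level was 5.06, 49.1, 0.435 and 0.641 CPM. In wild type replicates 1 to 4 it was 0.850, 20.2, 57.3 and 0.823 CPM. Wild type replicates 3 and 2 and Ercc1 delta/+ replicate 2 were high, Ercc1 delta/+ replicate 1 was intermediate, and the remaining 4 libraries, 2 of each genotype, lay below 1 CPM. The raw counts ran from 12 to 1456, so every library exceeded 3 counts. In bulk tissue, fewer cells of a type and less RNA per cell cannot be told apart, so these levels are not counts of serotonin neurons.

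Slc6a4 put the libraries in nearly the same order. Its level was 2.18, 36.4, 0.145 and 0.412 CPM in Ercc1 delta/+ replicates 1 to 4 and 0.695, 10.95, 37.0 and 0.366 CPM in wild type replicates 1 to 4. The 5 libraries with the highest Tph2 had the highest Slc6a4 in the same order, and below them only ranks 6 and 7 were exchanged. The lowest value, in Ercc1 delta/+ replicate 3, rests on 4 counts.

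The ratio of Slc6a4 to Tph2 counts moved within a much narrower band than either gene. It was 0.645 in wild type replicate 3 (95% exact binomial interval 0.593 to 0.701), 0.740 in Ercc1 delta/+ replicate 2 (0.668 to 0.821) and 0.542 in wild type replicate 2 (0.458 to 0.640). In Ercc1 delta/+ replicate 1 it was 0.431 (0.300 to 0.612). In the 4 libraries below 1 CPM of Tph2 it ran from 0.333 to 0.818, each with an interval that contains the value of wild type replicate 3. The interval of Ercc1 delta/+ replicate 2 overlaps neither that of wild type replicate 2 nor that of Ercc1 delta/+ replicate 1. The intervals cover counting error only, and amplified reads are not independent molecules.

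Fev gave the fewest counts of the 3 in every library, at 0.139, 1.59, 0.0724 and 0.229 CPM in Ercc1 delta/+ replicates 1 to 4 and 0.193, 0.297, 2.05 and 0.274 CPM in wild type replicates 1 to 4. The same pair of libraries that led Tph2 led Fev, with 52 counts in wild type replicate 3 and 28 in Ercc1 delta/+ replicate 2. The other libraries held 2 to 9 counts, too few to rank. Fev amounted to 0.0357 of the Tph2 count in wild type replicate 3 (95% exact binomial interval 0.0265 to 0.0471) and to 0.0323 in Ercc1 delta/+ replicate 2 (0.0213 to 0.0470). In wild type replicate 4, with 9 counts of Fev and 27 of Tph2, it was 0.333 (0.138 to 0.730). That interval lies above those of the 2 leading libraries. The same held for Ercc1 delta/+ replicate 4, at 0.357 (0.101 to 1.05), and wild type replicate 1, at 0.227 (0.0672 to 0.615). In Ercc1 delta/+ replicate 3, with 2 counts of Fev, the ratio was 0.167 with an interval that overlaps them (0.0181 to 0.749). Wild type replicate 2, high in Tph2, had 6 counts of Fev against 408 of Tph2, a ratio of 0.0147 (0.00537 to 0.0323). For Ercc1 delta/+ replicate 1, with 3 counts of Fev, it was 0.0275 (0.00559 to 0.0826). Both intervals overlap those of the 2 leading libraries.

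**Figure D1:**
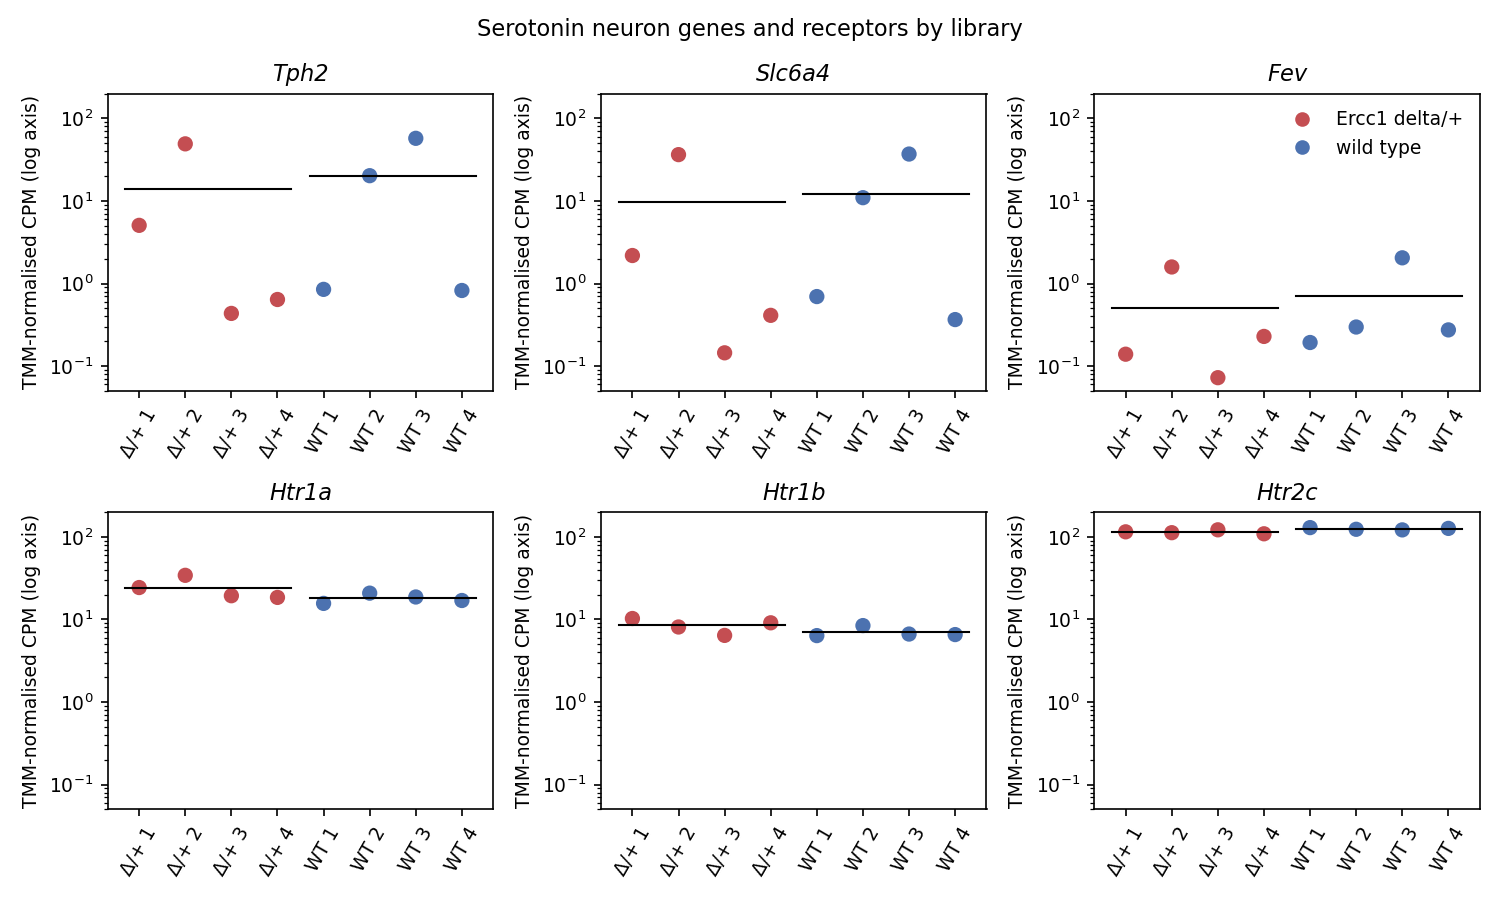
Normalised CPM (log axis, the same in all panels) of the 6 genes in each library, with Ercc1 delta/+ in red, wild type in blue and black lines at the group means. Tph2 runs from 0.435 to 57.3 CPM with high libraries in both genotypes, whereas Htr2c stays between 109 and 129 CPM.

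**Figure D2:**
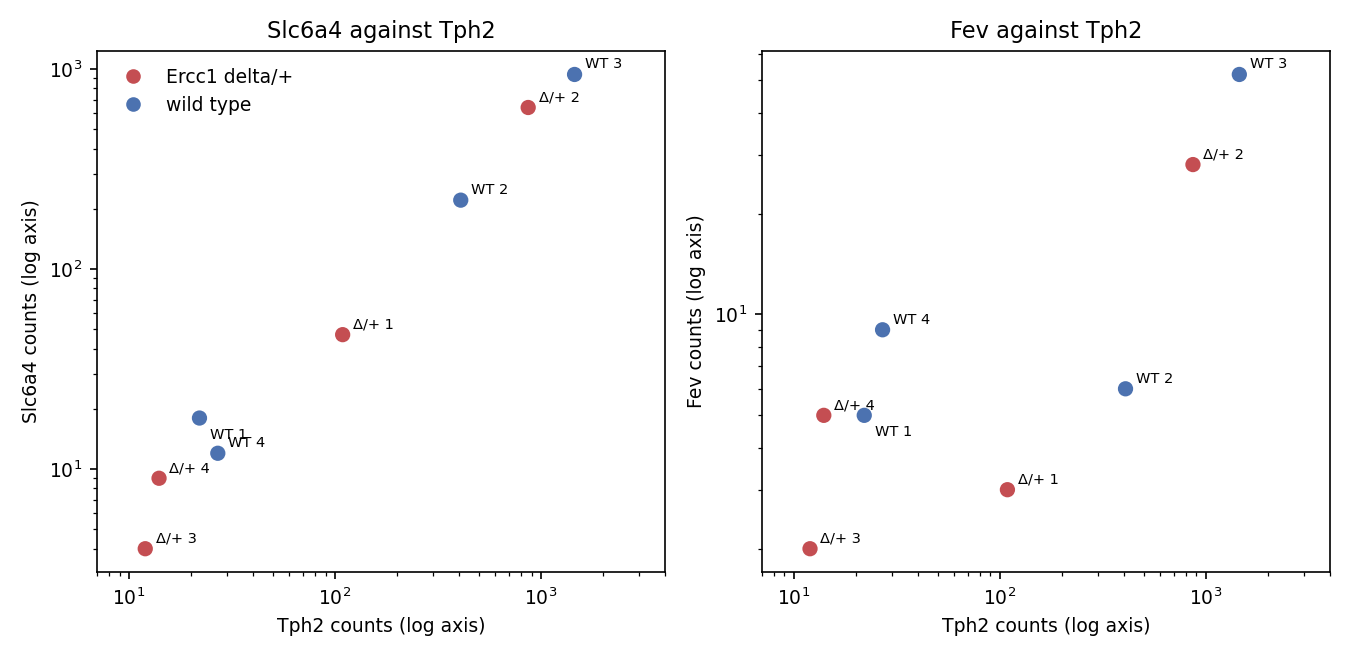
Raw counts of Slc6a4 (left) and Fev (right) against raw counts of Tph2, both axes logarithmic, 1 point per library. Slc6a4 follows Tph2 from 12 to 1456 Tph2 counts, and Fev separates from the rest only in wild type replicate 3 (52 counts) and Ercc1 delta/+ replicate 2 (28 counts).

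Against the rest of the transcriptome, the serotonin neuron genes were among those that varied most. Over the 8 libraries the coefficient of variation of CPM was 147% for Slc6a4 and 140.0% for Tph2, which ranked 5 and 8 among the 14182 genes with a mean of at least 1 CPM. The median of those genes was 12.3%. Counting error alone would give 6.24% for Slc6a4 and 5.05% for Tph2. Fev, with a mean of 0.605 CPM and so outside that set, had a coefficient of variation of 126% where counting error alone would give 26.6%. The receptors varied far less, at 28.1% for Htr1a, 19.0% for Htr1b and 5.94% for Htr2c, and 10.02% of those genes varied less than Htr2c. The value of Htr1a was 14.7% without Ercc1 delta/+ replicate 2.

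Genes of neighbouring regions also differed between libraries. Ranks 1 and 2 for variation belonged to Slc6a5, the glycine transporter gene of inhibitory hindbrain neurons, and Dbh, which encodes the enzyme that makes noradrenaline. Slc6a5 reached 16.8 CPM in Ercc1 delta/+ replicate 2 and 0.183 to 1.299 CPM in the other 7 libraries, and Dbh reached 9.07 CPM against 0.149 to 0.551 CPM. The same library was low in the sum of 10 hypothalamic and mammillary marker genes, at 36.0 CPM against 268 to 770.1 CPM in the others. It held 2.27 CPM of Avp, the vasopressin gene, and 1.98 CPM of Hcrt, the orexin gene. Not every gene of that list was low in it. Lhx1 had its highest level of the 8 libraries there, at 7.08 CPM. Foxb1, at 4.65 CPM, was low there but lay above Ercc1 delta/+ replicate 3, at 4.06 CPM. High Slc6a5 and Dbh were thus seen in 1 of the 3 libraries with high Tph2. Wild type replicate 3, which held the most Tph2, had 1.299 and 0.551 CPM of them, the highest values among the other 7 libraries. Their part in the serotonin values was not tested. None of the 12 Hox genes listed as markers of more caudal hindbrain had a row in the table.

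The dopaminergic markers that define the dissected region were present in all 8 libraries, with no gene of the list at 0. The 13 genes summed to 344 to 598 CPM in Ercc1 delta/+ and 460.3 to 666 CPM in wild type. Th, which encodes the rate-limiting enzyme of dopamine synthesis, ran from 32.0 to 67.5 CPM and the dopamine transporter gene Slc6a3 from 38.1 to 109 CPM. Wild type replicate 3 held the most Tph2 and the highest dopaminergic sum, followed in both by Ercc1 delta/+ replicate 2. Ercc1 delta/+ replicate 3 held the least of both. The remaining libraries did not share an order. In Ercc1 delta/+ replicate 4, for example, Slc6a3 reached 102 CPM while Tph2 was 0.641 CPM.

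**Figure D3:**
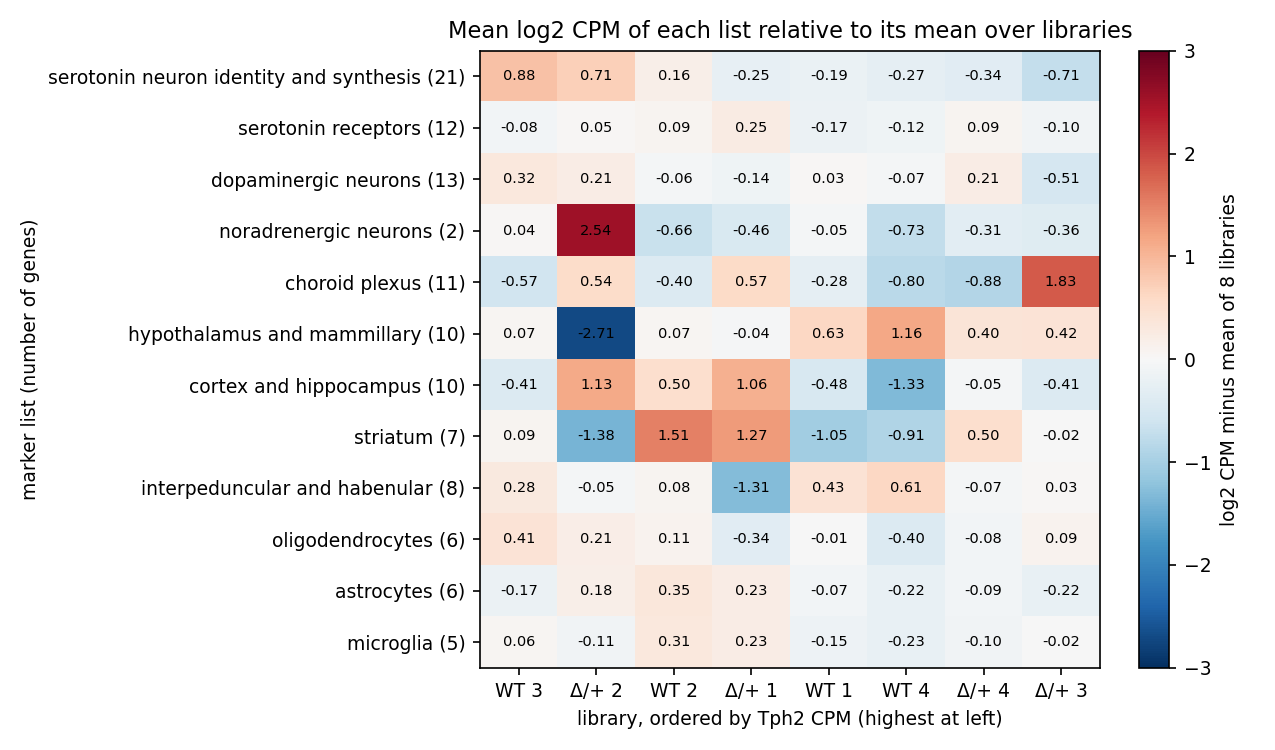
Mean log2 CPM of each marker list (rows, with the number of genes) relative to its own mean over the 8 libraries, with libraries ordered from left to right by falling Tph2. Ercc1 delta/+ replicate 2 is at -2.71 for the hypothalamic and mammillary list and 2.54 for the noradrenergic list, and the serotonin receptor list stays between -0.17 and 0.25.

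The other genes of serotonin synthesis and identity are shared with other cells of this region and varied less. Ddc, which encodes the decarboxylase that completes both serotonin and dopamine synthesis, ran from 36.5 to 82.5 CPM, and Slc18a2, the vesicular transporter gene of both cell types, from 33.2 to 83.6 CPM. Both peaked in wild type replicate 3, followed by Ercc1 delta/+ replicate 2. The same pair of libraries led Gchfr, which encodes a regulator of cofactor synthesis, at 2.32 and 1.47 CPM. They also led En1 and En2, homeobox genes of the midbrain and anterior hindbrain. En1 stood at 8.31 CPM in the wild type and 12.01 CPM in the mutant library, against at most 4.67 CPM elsewhere. Gata3, a transcription factor gene of serotonin and midbrain GABAergic neurons, was also highest in this pair, at 8.15 CPM in the wild type and 15.9 CPM in the mutant library, but wild type replicate 1, with little Tph2, held 6.99 CPM. Other genes of the list did not follow this pair. Lmx1b, a transcription factor gene of both serotonin and dopamine neurons, was lowest in Ercc1 delta/+ replicate 2 at 0.453 CPM. Nkx2-2 was also lowest there, at 7.08 CPM, but stood at 11.9 CPM in wild type replicate 3. Maob held 40.1 CPM in the mutant and 43.9 CPM in the wild type library of the pair, against up to 73.1 CPM elsewhere. Tph1, the peripheral form of the hydroxylase, had no row in the table.

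Htr1a, the autoreceptor gene of serotonin neurons that is also expressed in cortex and hippocampus, shared part of the order of Tph2. It stood at 24.3, 34.2, 19.4 and 18.5 CPM in Ercc1 delta/+ replicates 1 to 4 and at 15.6, 20.8, 18.7 and 17.0 CPM in wild type replicates 1 to 4. Wild type replicate 3, with the most Tph2, ranked 5 of 8 for Htr1a, while the 3 libraries with the most Htr1a held ranks 2, 3 and 4 for Tph2. These 3, wild type replicate 2 and, in Ercc1 delta/+, replicates 2 and 1, also had the highest sums of 10 cortical and hippocampal markers, at 2004, 1936 and 2761 CPM. That list summed to 1187 to 2761 CPM in Ercc1 delta/+ and 760.2 to 2004 CPM in wild type, and its part in the Htr1a values was not tested.

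Htr1b, which encodes a receptor on serotonergic and other axon terminals, stood at 10.3, 8.10, 6.41 and 9.10 CPM in Ercc1 delta/+ replicates 1 to 4 and at 6.37, 8.43, 6.65 and 6.56 CPM in wild type replicates 1 to 4. The groups overlapped, and the highest library, Ercc1 delta/+ replicate 1, was intermediate in Tph2. Htr2c was the steadiest of the 6, at 115, 112, 122 and 109 CPM in Ercc1 delta/+ and 129, 124, 121 and 127 CPM in wild type. In 3 mutant libraries it lay below every wild type library, and in the fourth, replicate 3, it lay just above the lowest of them. That library had the most choroid plexus RNA, with 993 CPM of Ttr, the transthyretin gene, which was lowest at 18.3 CPM in wild type replicate 4. The 11 choroid plexus genes, none at 0, summed to 103 to 1208 CPM in Ercc1 delta/+ and 104 to 188 CPM in wild type. All 11 had a positive log2 fold change (median 1.76), where 49.5% of all genes did. By edgeR 0 passed and 7 had an unadjusted p under 0.05 (18.6% of all genes). DESeq2 called 4 (7.44% of genes given an adjusted p). For 2 the groups did not overlap, as for 5.17% of genes tested in the higher direction. The part of the choroid plexus genes in the Htr2c values was not tested. Htr2c itself changed by at most 1.19-fold between any pair of libraries.

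Per kilobase of transcript, a scale on which genes can be set beside each other, Htr2c was the most abundant of 12 serotonin receptor genes in the table, with a mean level of 25.3 CPM per kilobase over the 8 libraries (range 22.9 to 27.3). Htr7, which encodes a receptor that raises cyclic AMP, came next at 10.5 (7.32 to 12.8), and its range did not overlap that of Htr2c. Htr1b followed at 6.08 (5.01 to 8.06) and Htr1a at 4.70 (3.49 to 7.63), and the range of Htr1b overlapped those of Htr7 and Htr1a. Htr5a stood at 3.05 (2.72 to 3.44), below every value of Htr1a. Htr5b, Htr2a, Htr1d, Htr6, Htr4 and Htr3a, with means from 1.10 to 1.94, overlapped one another, and Htr1f had the lowest mean at 0.455 (0.319 to 0.659), within reach of Htr3a. On the same scale Tph2 averaged 6.40 (0.165 to 21.8) and Slc6a4 4.04 (0.0532 to 13.6), so their place among the receptors depended on the library. Transcript lengths were taken from a later annotation, and a transcript of another length in the models used for counting would shift in this order. Htr2b and Htr3b had no row in the table.

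**Figure D4:**
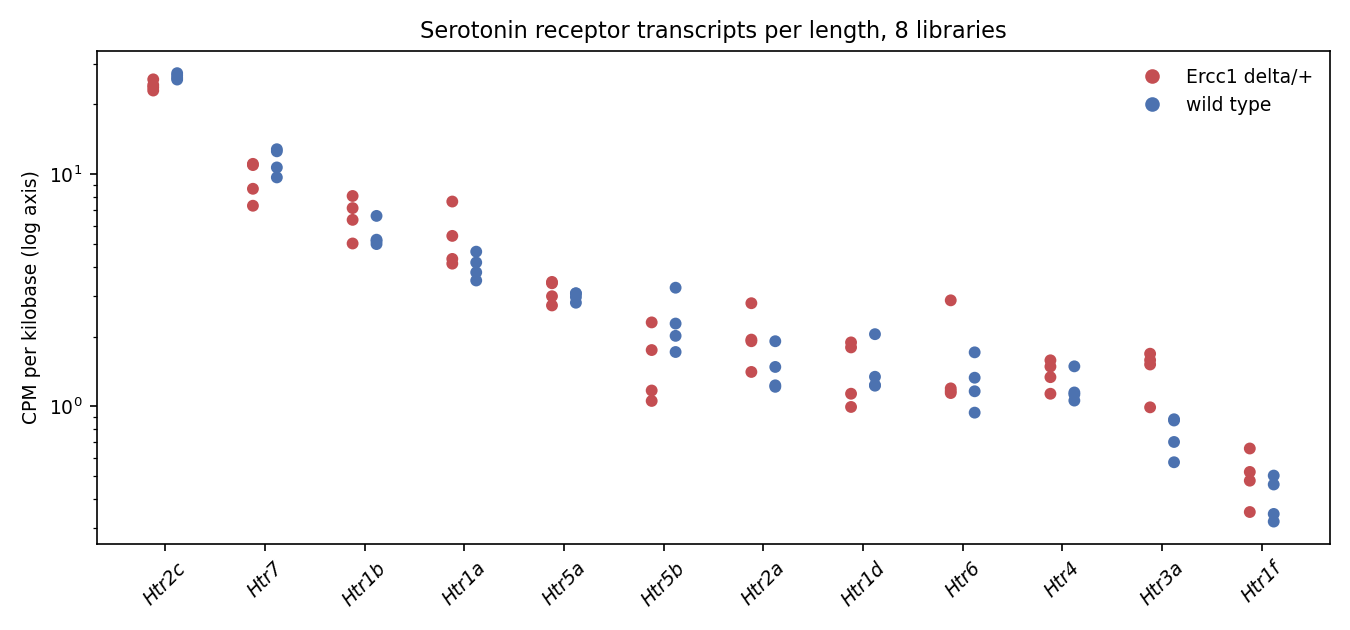
CPM per kilobase (log axis) of the 12 serotonin receptor genes in the 8 libraries, ordered by mean, with Ercc1 delta/+ in red and wild type in blue. Htr2c, at 22.9 to 27.3, lies above every other receptor in every library.

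The comparison of genotypes asked whether serotonin transcripts differ in midbrain when 1 allele of Ercc1 is mutant. Fev was left out by the filter on low counts, and 0 of the other 5 had an adjusted p under 0.05 (edgeR quasi-likelihood test, Benjamini-Hochberg), where 7 of 14989 genes (0.0467%) did. At an unadjusted p under 0.05 the counts were 0 of the 5 and 2789 of all genes (18.6%). DESeq2 also called 0 of the 5, against 7.44% of the genes to which it gave an adjusted p, and had 2 at an unadjusted p under 0.05, against 19.4%. With limma-voom both counts were 0, against 0.347% and 19% of all genes. The groups overlapped for all 6 genes, whereas they did not overlap for 12% of genes tested.

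For the serotonin neuron genes the spread within each genotype exceeded the difference between genotypes. The group means of Tph2 (± SD, n = 4) were 13.8 ± 23.6 CPM in Ercc1 delta/+ against 19.8 ± 26.6 CPM in wild type. The fitted log2 ratio was -0.55 (SE 1.49, adjusted p = 0.880 by edgeR). Its 95% interval ran from -3.90 to 2.81, or from 0.0670 to 6.995 times the wild type level. Those of Slc6a4 were 9.78 ± 17.8 against 12.2 ± 17.2 CPM, and its log2 ratio was -0.36 (95% interval -3.81 to 3.10, adjusted p = 0.926 by edgeR). Without Ercc1 delta/+ replicate 2 the log2 fold changes were -3.31 for Tph2 and -3.79 for Slc6a4 (adjusted p = 0.289 and 0.246 by edgeR), and without wild type replicate 3 they were 0.93 and 1.31 (adjusted p = 0.828 and 0.761). For Fev an exact two-sided permutation test of log2 CPM gave p = 0.486, where the smallest p that 4 against 4 allows is 0.0286.

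For the receptors the intervals were narrower. Mean Htr1a (± SD, n = 4) was 24.1 ± 7.22 CPM in Ercc1 delta/+ against 18.0 ± 2.24 CPM in wild type, and the log2 ratio was 0.42 (SE 0.19, 95% interval -0.01 to 0.85, adjusted p = 0.283 by edgeR). It was 0.20 without Ercc1 delta/+ replicate 2 and 0.24 when the 4 libraries of lowest total had a term of their own. Htr1b had means of 8.47 ± 1.63 against 7.002 ± 0.956 CPM and a log2 ratio of 0.28 (95% interval -0.09 to 0.64, adjusted p = 0.390 by edgeR). It was 0.17 without Ercc1 delta/+ replicate 1 and 0.05 with the depth term. Htr2c had means of 115 ± 5.41 against 125 ± 3.49 CPM, and the 95% interval of its log2 ratio, -0.13 (SE 0.06), ran from -0.26 to 0.0011 (adjusted p = 0.272 by edgeR). In the authors' deposited table the log2 fold changes were -0.70 for Tph2, -0.53 for Slc6a4, -0.69 for Fev, 0.38 for Htr1a, 0.27 for Htr1b and -0.13 for Htr2c. The lowest adjusted p of the 6 in the authors' deposited table was 0.252, for Htr1a.

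**Figure D5:**
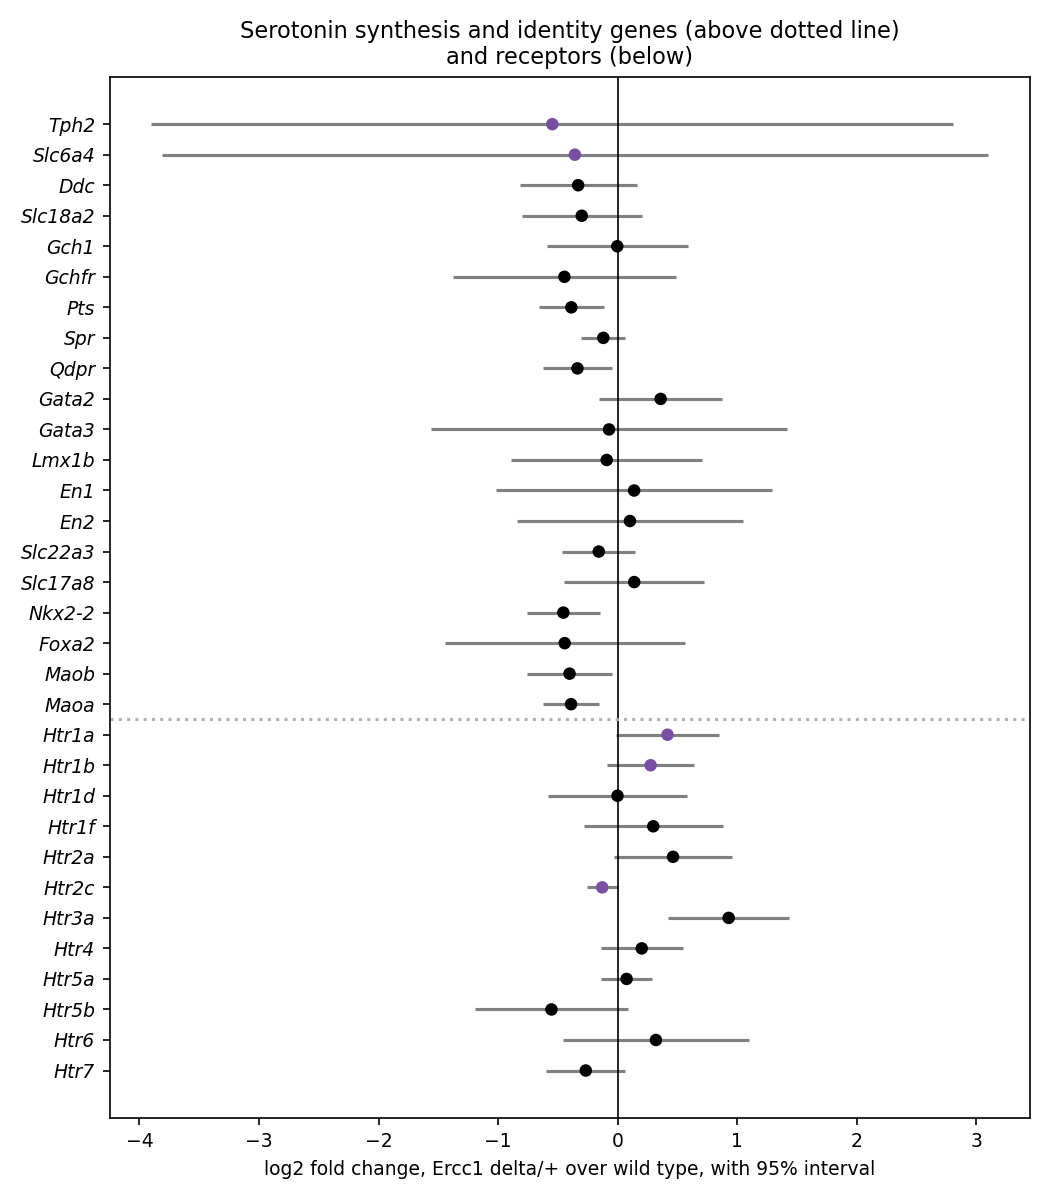
Log2 fold change of Ercc1 delta/+ over wild type with its 95% interval for the tested genes of serotonin synthesis and neuron identity (above the dotted line) and for the serotonin receptors (below), with Tph2, Slc6a4, Htr1a, Htr1b and Htr2c in purple. The intervals of Tph2 (-3.90 to 2.81) and Slc6a4 (-3.81 to 3.10) are the widest shown.

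Of the 14 serotonin receptor genes listed, 12 were tested, of which 8 were higher and 4 lower in Ercc1 delta/+ by sign alone, where 49.5% of all genes had a value above 0 (median log2 fold change 0.24, against 0.00 for all genes tested). The 10 cortical and hippocampal markers were positive in 9 and negative in 1 (median 0.90), and their part in the receptor values was not tested. By edgeR 0 receptors passed, with 1 at an unadjusted p under 0.05 (18.6% of all genes), and DESeq2 called 1 (7.44% of genes given an adjusted p). In both tools that gene was Htr3a, which encodes a subunit of the serotonin-gated ion channel. It stood at 3.298, 3.51, 2.06 and 3.16 CPM in Ercc1 delta/+ replicates 1 to 4 and 1.20, 1.83, 1.81 and 1.46 CPM in wild type replicates 1 to 4. The groups did not overlap, as for 5.17% of genes tested in the same direction, and the log2 fold change was 0.93 (SE 0.22, adjusted p = 0.0897 by edgeR and 0.0110 by DESeq2). Htr2a, which encodes a receptor abundant on cortical pyramidal cells, had a value of 0.46 (SE 0.22), Htr5b -0.55 (SE 0.28) and Htr7 -0.27 (SE 0.15).

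Of the 22 genes listed for serotonin neuron identity, synthesis and breakdown, 20 were tested. The sign was positive for 4 and negative for 16 (median log2 fold change -0.32). Values in 3 marker lists of the region were also mostly negative, with 2 positive and 11 negative for dopaminergic neurons (median -0.11), 0 and 10 for hypothalamus and mammillary bodies (-0.48) and 1 and 7 for the interpeduncular nucleus and habenula (-0.38). Their part in the values of the serotonin list was not tested, and Ddc and Slc18a2 belong to both it and the dopaminergic list. By edgeR 0 of the 20 passed, with 5 at an unadjusted p under 0.05 (18.6% of all genes), all negative, and DESeq2 called 1 (7.44% of genes given an adjusted p), Maoa. Maoa, a monoamine oxidase gene whose product breaks serotonin down, stood at 38.1, 41.0, 45.9 and 41.0 CPM in Ercc1 delta/+ replicates 1 to 4 and 50.0, 47.2, 55.8 and 64.4 CPM in wild type replicates 1 to 4. Its log2 fold change was -0.39 (SE 0.10, adjusted p = 0.103 by edgeR and 0.0236 by DESeq2). The related gene Maob had a value of -0.40. Pts and Qdpr, which make and recycle the cofactor of the hydroxylase, had values of -0.39 and -0.34, and Nkx2-2, a transcription factor gene of serotonin progenitors and oligodendrocytes, -0.45. For Maoa, Pts and Nkx2-2 the groups did not overlap, as for 6.86% of genes tested in the lower direction. The count of 4 positive values was 10 without wild type replicate 3, 8 without Ercc1 delta/+ replicate 3, 2 without wild type replicate 4 and 1 with the depth term.

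Of 20 genes of serotonin receptor signalling, 12 were above and 8 below 0 in log2 fold change (median 0.07), 0 passed by edgeR or DESeq2, and 3 had an unadjusted p under 0.05 by edgeR, where 18.6% of all genes did. Those of smallest p were Mpdz, which encodes a scaffold protein that binds the Htr2c receptor, at 0.22 (SE 0.08), Gnaq, the G protein gene of the Htr2 receptors, at 0.19 (SE 0.07), and Kcnj6, a potassium channel gene that Htr1a signalling opens, at 0.36 (SE 0.13). Adar and Adarb1, which encode the enzymes that edit Htr2c transcripts, had values of 0.13 and -0.13. Read counts per transcript do not show editing.

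The libraries fell into 4 below 1 CPM of Tph2 and 4 above 5 CPM, so no correlation over all 8 is given for pairs of the 6 genes that include Tph2, Slc6a4 or Fev, and 4 libraries are too few for one within each set. Among the receptors, Htr1b and Htr2c had a Pearson r of -0.73 for log2 CPM over the 8 libraries (exact permutation p = 0.0477, adjusted 0.179 over the 15 pairs of the 6 genes) and a Spearman rho of -0.71 (exact permutation p = 0.0576). Without the 2 libraries farthest from the median of Htr1b, r was -0.57. Htr1a and Htr2c had an r of -0.61 (exact permutation p = 0.101, adjusted 0.242) and Htr1a and Htr1b an r of 0.52 (exact permutation p = 0.187, adjusted 0.351). Their Spearman rho values were -0.55 (exact permutation p = 0.171) and 0.57 (exact permutation p = 0.151), and r without the 2 libraries farthest from the median of Htr1a was -0.40 and 0.51. Over deviations from the genotype means, r was -0.61 for Htr1b and Htr2c, -0.30 for Htr1a and Htr2c and 0.31 for Htr1a and Htr1b. No pair of receptors passed after adjustment over the 15 pairs.

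The genes most like the mean pattern of Tph2, Slc6a4 and Fev, by Pearson r of log2 CPM over the 8 libraries among 14177 other genes with a mean of at least 1 CPM, were Pex19 (0.97), Nosip (0.94), Eif4a3 (0.94), Tmem14a (0.93), Olfml1 (0.93), Hs1bp3 (0.92), Macrod1 (0.92) and Ldoc1 (0.92). Here r serves only to rank genes, with no test, and it carries the same limit, the separation into 2 sets of 4 libraries. The 8 genes changed little: Pex19, which encodes a carrier of peroxisomal membrane proteins, ran from 63.9 to 78.1 CPM, and the widest range among the 8 was 1.71-fold, in Ldoc1. Those most like Htr2c were Gm14288 (0.97), Fam169a (0.97), Ascc1 (0.95), Nae1 (0.95) and Ino80b (0.95).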

How the data were processed

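Poly(A) RNA of 8 ventral midbrain samples was sequenced in 1 pooled lane after selection on RNA quality, per the labels' protocols. TopHat 1.3.1, edgeR and the mm9 build are named in the submitters' processing notes, while the counting tool, the use of strand and the treatment of shared reads were not given in the sources used here. The authors deposited raw counts per coding RefSeq transcript (19931 rows, lowest row total 31), with their own log2 fold change, p-value and adjusted p-value per row, which are the authors' deposited comparison of mutant with wild type.

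Rows were matched to symbols through RefSeq (GRCm38.p6) and GENCODE M21 tables (19600 matched), used for names and transcript length only. The row of highest total stood for a gene and 45 genes with identical counts were merged, which left 15274. Genotypes were compared with edgeR 4.0.16 (R 4.3.3), glmQLFit and glmQLFTest, with TMM scaling, filterByExpr (14989 genes kept), Benjamini-Hochberg adjustment over all genes and a threshold of 0.05, two-sided. The standard error is the estimate divided by the root of F. CPM are TMM-normalised, with a prior count of 2 on the log2 scale. Permutation tests went through every split or pairing of the libraries, and scipy 1.17.1 gave the ranks, the exact binomial intervals and the adjustment over pairs. The test was tried on simulated data. Libraries of a group were never within sampling noise of each other (lowest chi-square over degrees of freedom 11.9). Library totals limit precision as stated above.

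The 6 genes, the lists and the alternatives were chosen with earlier results of these data known. Alternatives were RLE scaling, no filter, DESeq2 1.42.0, limma-voom (limma 3.58.1), the replicate number as a block, a depth term that sets the 4 smallest libraries apart, leaving out each library, and the sum of all rows of a gene. For correlations a prior count of 0.5 and deviations from group means were also tried. Added after seeing the data were a covariate for the mean of standardised log2 CPM of Tph2, Slc6a4 and Fev, and leaving out the 3 libraries of highest Tph2. By rule, the text names Ercc1, the 6 genes, up to 6 genes of each serotonin list by smallest p, receptors needed for the order of levels, up to 4 genes of each other list by highest mean CPM, the 8 genes most like the serotonin neuron genes and the 5 most like Htr2c. Slc6a5, Th, Slc18a2, Gchfr, En1, En2, Gata3, Lmx1b, Adarb1, Lhx1 and Foxb1 were named after their values were seen. Of 15 planned correlations, all were computed and 12 are not given because the libraries fall into separate sets, a choice made after their values were seen.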

Additional observations from a re-analysis of the deposited data

Results flagged for a closer look

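In a group of 4, a library was singled out when its gap to the nearest other library was too large a part of the group's range by Dixon's 95% value for 4 samples. The rule was applied to the 6 serotonin genes, Ercc1 and Dbh in both genotypes, 16 groups in all. Chance singles out about 1 in 20 where values are normally distributed and genes are chosen beforehand. That rate cannot be relied on here. The 6 genes were chosen with earlier results of these data known, and Dbh was added after its values were seen. Tph2, Slc6a4 and Fev also had their highest levels in the same libraries, so their results are not independent. In Ercc1 delta/+, replicate 2 was singled out for Tph2 (49.1 CPM), Slc6a4 (36.4 CPM), Fev (1.59 CPM) and Dbh (9.07 CPM). In wild type, replicate 3 was singled out for Fev (2.05 CPM) and replicate 2 for Htr1b (8.43 CPM). Tph2 and Slc6a4 in wild type were not singled out, because replicate 2 lies between replicate 3 and the others.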

How the results depend on the processing

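The count of genes past the threshold, 7 in the main test, was 33 with RLE scaling, 1028 with DESeq2, 52 with limma-voom, 7 with rows summed, 1 with the depth term, 7 without a filter, 6 with the serotonin covariate, 0 without the 3 libraries of highest Tph2, and 0 to 321 with 1 library left out (321 without Ercc1 delta/+ replicate 2 and at most 3 without any other). The serotonin genes tested were called in none of these settings. The log2 fold changes of Htr1a, Htr1b and Htr2c kept their sign in all 17 alternatives, with ranges of 0.20 to 0.52, 0.05 to 0.41 and -0.16 to -0.09. That of Htr1a was 0.47 with the serotonin covariate (adjusted p = 0.0953 by edgeR, from 0.0953 to 0.611 over its alternatives). With 1 library left out, Tph2 ran from -3.31 to 0.93 and Slc6a4 from -3.79 to 1.31. Tph2 was positive without wild type replicate 3 (0.93), and Slc6a4 without that library (1.31), Ercc1 delta/+ replicate 3 (0.07) or replicate 4 (0.05). Without the 3 libraries of highest Tph2 the values were 1.26 for Tph2 and 0.76 for Slc6a4, and with the depth term -1.98 and -1.75. The cause of these changes was not tested. Positive values in the identity and synthesis list numbered 1 with the depth term, 7 without those 3 libraries and 2 to 10 with 1 library left out. The coefficient of variation of Htr1a was 14.7 to 30.3% with 1 library left out. The correlation of Htr1a with Htr2c was -0.94 to -0.50 with 1 library left out, and its adjusted exact permutation p was 0.0104 without Ercc1 delta/+ replicate 4. With the replicate block 0 genes passed and the log2 fold changes were -0.23 for Tph2 and 0.38 for Htr1a. No pairing by replicate number was seen in the values. Deviations of same-numbered samples correlated at -0.28, 0.17, -0.12 and 0.26, and 1 of 8 libraries correlated best with its own number. These correlations cannot settle whether same-numbered samples were handled together. Fev, filtered out of the main test, had a log2 fold change only without the filter, and its 2 to 9 counts in most libraries limit what can be said of it.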
